A study of Mus musculus with 6 samples.

Results

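Hepatic mRNA levels of 6 genes were examined among the 24421 genes of the deposited table. These were the PAR bZIP transcription factors *Dbp*, *Tef* and *Hlf*, their competitor *Nfil3*, and the known outputs *Alas1* and *Por*, each taken by its gene symbol, a choice made with earlier results of these data known. The libraries were made from livers of 3 WT and 3 *Pai-1*+/- C57BL/6 mice aged 21 weeks in the labels, which had free access to a standard chow (SC) diet. *Pai-1*+/- mice, which are heterozygous for a germline deficiency of plasminogen activator inhibitor 1 (PAI-1), came from crossing *Pai-1*-/- with WT mice. The labels describe the WT mice as males, and the study's text describes both genotypes as males of the C57BL/6 J substrain. The study asked how less PAI-1 changes hepatic gene expression, but that comparison is not made here for any gene. The bare numbers that head the columns of deposited counts match no sample label, so no count was given to a genotype, and the study's own fold changes were not used. The values below are therefore the authors' mean normalized counts over all libraries of both genotypes together, with no value per mouse, no SD and no p-value.

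PAR bZIP factors are named for a domain rich in proline and acidic residues beside a basic leucine zipper, with which they bind DNA as dimers at a site termed the D-box. DBP, TEF and HLF activate transcription from D-boxes, whereas NFIL3, also known as E4BP4, represses it from the same sites. In liver the CLOCK and BMAL1 activators drive *Dbp* with a daily rhythm, REV-ERB proteins repress *Nfil3*, and the PAR bZIP factors maintain genes of drug and haem metabolism. ALAS1 makes the first committed intermediate of haem, the group that cytochrome P450 enzymes carry, and POR passes electrons from NADPH to those enzymes.

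The basic region that these 4 factors share is given as coding sequence, because it is the part through which they compete for the same DNA. A stretch of 60 bases was chosen as the in-frame window of the longest *Tef* coding sequence with the most bases in common with *Dbp*, *Hlf* and *Nfil3*. In the *Tef* line, capitals mark bases that are the same in all 4 genes, and in the other lines they mark bases that equal the *Tef* base.
Tef: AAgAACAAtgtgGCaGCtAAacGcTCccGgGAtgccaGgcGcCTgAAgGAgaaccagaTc
Dbp: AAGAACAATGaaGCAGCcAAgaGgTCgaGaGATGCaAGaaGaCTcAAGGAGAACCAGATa
Hlf: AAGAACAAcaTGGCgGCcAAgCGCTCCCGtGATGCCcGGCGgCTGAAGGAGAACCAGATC
Nfil3: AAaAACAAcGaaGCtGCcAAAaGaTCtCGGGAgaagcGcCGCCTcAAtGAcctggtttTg
All 4 coding sequences held the same base at 28 of the 60 positions. *Hlf* matched *Tef* at 52 positions, *Dbp* at 45 and *Nfil3* at 34. The window began 79.1% to 81.0% of the way along the coding sequences of the 3 PAR bZIP genes, but 17.6% of the way along that of *Nfil3*, so the basic region lies near opposite ends of the activators and the repressor. Over the whole coding sequences the longest run shared without a difference was 18 bases for *Tef* and *Hlf*, 14 for *Dbp* and either of them, and 10 for *Nfil3* and any of the 3. No stretch as long as a 75-base read was shared between any 2 of the 6 genes in the GENCODE transcripts, in either orientation.

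*Dbp* lies at chr7:45705088-45710203 on the plus strand of GRCm38, the assembly also named mm10, and *Tef* at chr15:81802421-81826863 on the plus strand. *Hlf* lies at chr11:90336536-90390895 and *Nfil3* at chr13:52967209-52981073, both on the minus strand. The outputs *Alas1*, at chr9:106233455-106248654 on the minus strand, and *Por*, at chr5:135670033-135735326 on the plus strand, are on chromosomes of their own, so none of the 6 genes are neighbours. Among the factors, the transcripts that hold the longest coding sequences differed mainly in their 3′ untranslated regions (UTRs). These measured 3020 bases in *Tef* and 4226 in *Hlf*, compared with 326 in *Dbp* and 272 in *Nfil3*. The 3′ UTRs of *Alas1* and *Por* measured 585 and 372 bases. A long UTR adds reads to a gene at a given number of transcripts, so levels of different genes are compared per kilobase of transcript.

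All 6 genes were well above the minimum mean normalized count of 10 that 12971 genes passed, and together they took 0.215% of the mean normalized counts summed over all genes, which came to 30045982. *Tef* had a mean normalized count of 4661, *Hlf* of 2257, *Dbp* of 2231 and *Nfil3* of 976. *Alas1* had 28783 and *Por* 25701, which placed these outputs at ranks 144 and 161 by reads. By reads alone *Tef* ranked 888, *Hlf* 1850, *Dbp* 1876 and *Nfil3* 3974.

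Per kilobase of the longest transcript the factors stood in a different order. *Dbp* had the highest level of the 4 factors at 1215 mean normalized counts per kilobase, which is rank 1244 of 12499 genes with a length, followed by *Tef* at 1059 and rank 1394. *Nfil3* stood at 482 per kilobase (rank 2663) and *Hlf* at 400.1 per kilobase (rank 3080). The median gene had 129 per kilobase, so *Dbp* was at 9.42 times the median, *Tef* at 8.21 times, *Nfil3* at 3.74 times and *Hlf* at 3.10 times. By this measure *Dbp* was within the highest 9.95% of genes and *Hlf* within the highest 24.6%. The outputs were far above their regulators. *Por* reached 9750 per kilobase (rank 180, 75.6 times the median) and *Alas1* 8468 (rank 200, 65.7 times the median).

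**Figure D1:**
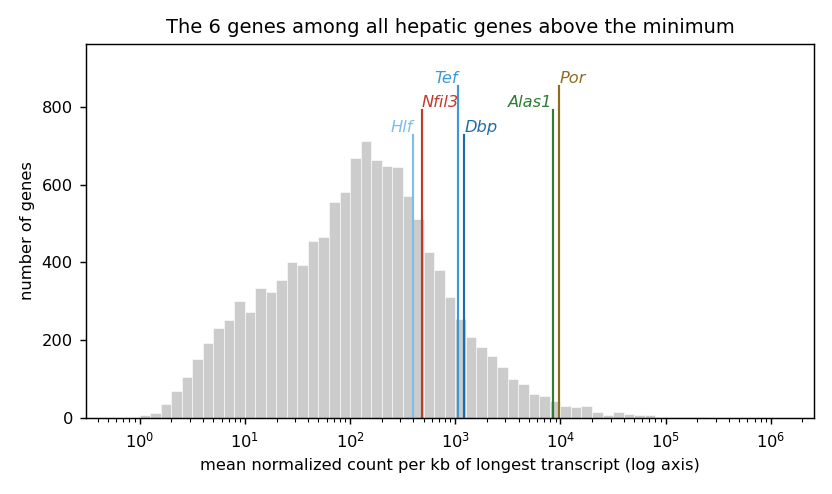
Number of genes (y axis) by mean normalized count per kilobase of the longest transcript (x axis, log scale) for the 12499 genes above the minimum with a length, averaged over all libraries of both genotypes. Coloured lines mark the 6 genes, of which *Hlf* (400.1), *Nfil3* (482), *Tef* (1059) and *Dbp* (1215) lie to the right of the peak and *Alas1* (8468) and *Por* (9750) in the far right tail.

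The order of neighbouring factors could not be set against a spread between mice. It also depended on the transcript length. With the median length of the coding transcripts, *Tef* stood above *Dbp* (2046 and 1782 per kilobase) and *Hlf* above *Nfil3* (721 and 482). With the union of all exons the order was again *Dbp* (746), *Tef* (592), *Nfil3* (482) and *Hlf* (338). *Por* exceeded *Alas1*, and both exceeded all 4 factors, under each of the 3 lengths. The median coding transcript measured 918 bases for *Por* and 1837.5 for *Alas1*. This is less than their longest coding sequences of 2034 and 1926 bases, so short transcript models raise their levels under that length. *Nfil3* has 1 annotated transcript, so its level was the same under each, whereas *Tef* has 10 transcripts and *Alas1* 13.

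**Figure D2:**
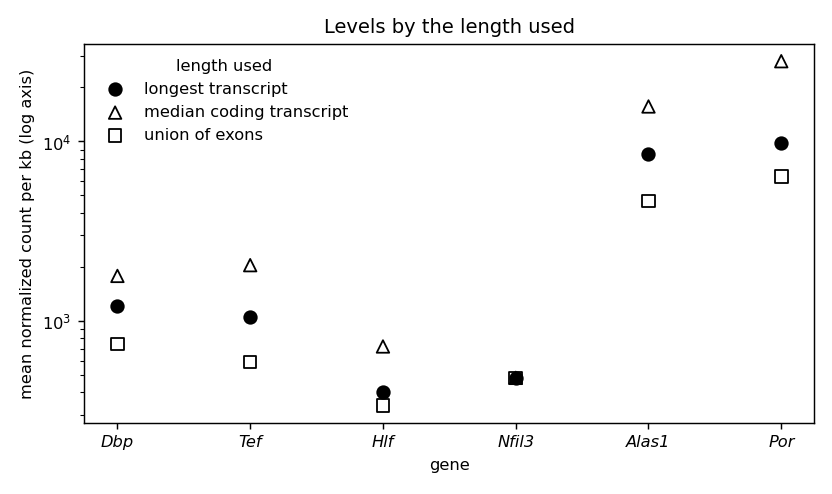
Mean normalized count per kilobase (y axis, log scale) of the 6 genes (x axis) with 3 lengths: the longest transcript (filled circles), the median coding transcript (triangles) and the union of exons (squares), with no error bars because no value per mouse was used. *Dbp* and *Tef* change places between lengths, as do *Hlf* and *Nfil3*, while *Alas1* and *Por* stay above the factors.

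The balance of activators to repressor can be expressed as the summed level of *Dbp*, *Tef* and *Hlf* over that of *Nfil3*. This ratio was 5.55 with the longest transcripts, 9.44 with the median coding transcripts and 3.48 with the exon unions. Of the summed PAR bZIP level with the longest transcripts, *Dbp* made up 45.4%, *Tef* 39.6% and *Hlf* 15.0%. *Hlf* was the smallest contributor under all 3 lengths, at no more than 20.2%. These are mean mRNA levels in whole liver over both genotypes and do not give the ratio in either genotype or at any hour, and in bulk tissue fewer cells of a type and less RNA per cell cannot be told apart.

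*Dbp* has a neighbour that bears on its own count. *Sphk2*, which encodes a sphingosine kinase, lies on the other strand and shares 539 exonic bases with *Dbp*, or 18.0% of the bases in *Dbp* exons. Of all 75-base words in *Dbp* transcripts, 15.3% also occur in *Sphk2* transcripts. The level of *Sphk2* was 526 per kilobase, so *Dbp* was 2.31 times higher. The sources used here do not say whether reads were counted by strand, and without strand, reads from the shared part cannot be told apart. *Tef* shares 193 exonic bases with the antisense gene *Gm17597* and *Alas1* shares 465 with the antisense gene *4930500F10Rik*, which are 2.45% and 7.53% of their exonic bases. Exons of *Hlf*, *Nfil3* and *Por* overlap no other gene in GENCODE M21, and none of their 75-base words occurs in a transcript of another gene.

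Clock genes that are known to act on or beside the factors were generally lower than *Dbp* per kilobase. All 15 clock regulators listed were above the minimum, with a median of 251 per kilobase, and 11 of them exceeded the median gene. *Bhlhe40*, a repressor of E-box transcription, was the highest at 1328 and the only 1 above *Dbp*. *Nr1d1* (799) and *Nr1d2* (599), which encode the REV-ERB repressors, were below *Dbp* and *Tef* but above *Hlf* and *Nfil3*. The activators *Clock* (152), *Arntl* (125), which encodes BMAL1, and *Npas2* (22.1) were much lower, as was *Cry1* (106). *Per1* (299.7), *Per2* (144) and *Per3* (202), which encode repressors in the negative limb of the clock, were all below *Hlf*. The study's text does not give the hour of collection. This order therefore describes these livers as collected, and whether it holds at other hours was not tested.

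The C/EBP factors are another bZIP family of hepatocytes, and their genes spanned a wider range than those of the PAR bZIP factors. *Cebpa*, which maintains the differentiated hepatocyte, stood at 3684 per kilobase and *Cebpb*, induced in acute phase and regenerative responses, at 2467, both above *Dbp*. *Cebpg* was at 349, *Cebpe* at 147 and *Cebpd* at 130.002, all below *Hlf*. *Ddit3*, the stress-induced member, had a mean normalized count of 185 and was given no length, because its symbol matched 2 gene models.

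*Alas1* was the highest of the 13 genes of haem synthesis and breakdown, which had a median of 943 per kilobase. The next were *Cpox* (2439), which makes protoporphyrinogen, *Blvrb* (2197), a biliverdin reductase, and *Alad* (1713), which follows *Alas1* in the pathway. Per kilobase of the longest transcript *Alas1* was 4.94 times as high as *Alad*, with mean normalized counts of 28783 and 3030. This ratio depends on the length used, and other lengths were not applied to *Alad*. *Ppox*, the penultimate enzyme of synthesis, was the lowest at 125. *Alas2*, the erythroid form of the enzyme, stood at 1048 per kilobase (mean normalized count 2136). The *Hba-a1*, *Hba-a2*, *Hbb-bs* and *Hbb-bt* globin genes, the other markers of red cells listed, were each listed at 0, so the share of blood in the livers could not be read from them.

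Per kilobase of the longest transcript, *Por* was the third highest of 8 genes of microsomal electron transfer above the minimum. Other lengths were not applied to the rest of this list. The level of *Por* itself moved between 6392 and 27996 with the length used, so its place and ratios hold for the longest transcript. *Cyb5a*, which encodes the cytochrome b5 that assists several P450 enzymes, was higher at 25559 per kilobase, as was *Pgrmc1*, a haem-binding partner of P450 enzymes, at 22883. *Por* was at 0.381 times the level of *Cyb5a* and above *Cyb5r3*, the NADH-cytochrome b5 reductase, at 3250. *Cyb5r2* had a mean normalized count of 0.839 and was under the minimum.

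Genes of detoxification known as PAR bZIP targets spanned a wide range. Of 14 genes, 13 passed the minimum, with a median of 1765 per kilobase, and 7 were among the highest 10% of genes. *Cyp2c50* (16488), *Cyp2a5* (11953), *Cyp2c37* (9971) and *Cyp2c54* (6753) were at levels like those of *Alas1* and *Por*. *Nr1i3*, the xenobiotic receptor CAR, was at 2246 and *Ppara*, the receptor for fatty acids, at 2858. In contrast, *Cyp2b10* (56.0), *Cyp2c55* (35.97), *Cyp2b9* (32.8) and *Cyp2a4* (19.2) were below the median gene. *Cyp2a4* and *Cyp2a5* are close paralogs, as are the *Cyp2c* genes, and reads can be shared between them, so their single values are uncertain.

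**Figure D3:**
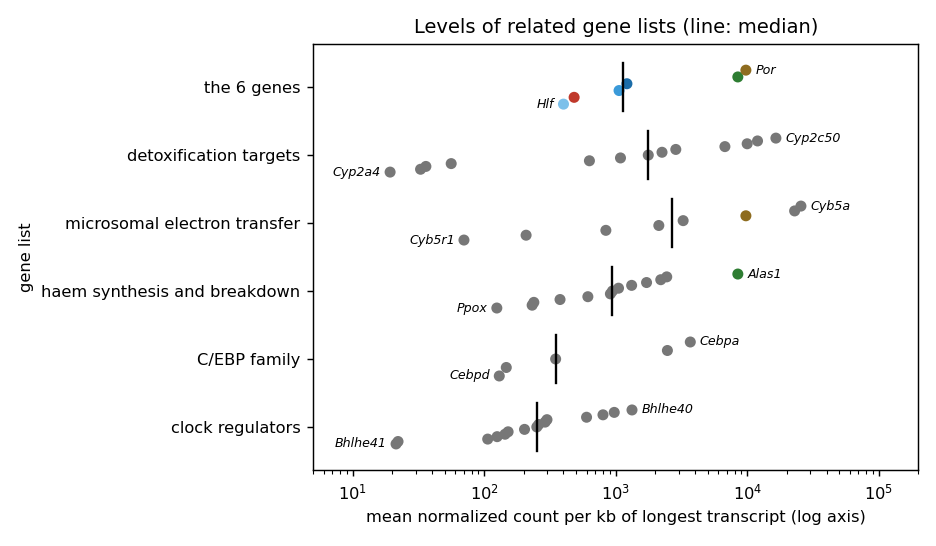
Mean normalized count per kilobase of the longest transcript (x axis, log scale) of each gene above the minimum with a length in 5 lists and of the 6 genes (y axis), with vertical lines at list medians. *Alas1* (green) is the highest gene of haem metabolism, *Por* (brown) the third highest of microsomal electron transfer, and the clock regulators, with a median of 251, lie mostly below *Dbp* (dark blue) and *Tef* (mid blue).

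The liver label was checked against markers. All 6 hepatocyte markers were among the highest 10% of genes, from *Hnf4a* at 5587 to *Alb*, which encodes albumin, at 1059760 per kilobase. Markers of Kupffer cells took 0.0197%, of stellate cells 0.0223%, of endothelial cells 0.0182% and of cholangiocytes 0.00535%, of all mean normalized counts, and every one of these markers was above the minimum. The neutrophil markers *S100a8* and *S100a9* were at 111 and 138 per kilobase, *Mpo* was under the minimum with a mean normalized count of 8.76, and *Ly6g* was not in the table used here. Per kilobase, the 4 lymphocyte markers were between 4.94 and 15.6.

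RefSeq promoters of GRCm38.p6 were found for all 6 genes, as windows from 250 bases before to 50 bases after a RefSeq start. These RefSeq starts differ from the outer ends of the GENCODE genes given above. *Tef* and *Alas1* have 2 starts each, which gave 8 promoters among 32851. The 2 *Alas1* windows overlap in part, so the 8 promoters are not all separate sequence. The E-box (CACGTG), through which CLOCK and BMAL1 activate, occurred in 2 of the 8, and both belong to *Tef*. It was found in 7.15% of all promoters, in 9.74% of those of genes above the minimum, and in both promoters of 2.45% of the 3102 genes with exactly 2. The *Tef* promoters and that of *Hlf* are shown because they hold the least common matches. Capitals mark the E-box, a CCAAT box (CCAAT, in 37.4% of promoters) or a cyclic AMP response element (TGACGTCA, in 1.79% of promoters), each searched on both strands, with no overlap between them here. Of the promoters of genes above the minimum, 2.88% held the cyclic AMP response element. The windows lie at chr15:81802423-81802722 and chr15:81811164-81811463 on the plus strand for *Tef* and at chr11:90390868-90391167 on the minus strand for *Hlf*, and each is printed in the direction of transcription.
Tef start 1: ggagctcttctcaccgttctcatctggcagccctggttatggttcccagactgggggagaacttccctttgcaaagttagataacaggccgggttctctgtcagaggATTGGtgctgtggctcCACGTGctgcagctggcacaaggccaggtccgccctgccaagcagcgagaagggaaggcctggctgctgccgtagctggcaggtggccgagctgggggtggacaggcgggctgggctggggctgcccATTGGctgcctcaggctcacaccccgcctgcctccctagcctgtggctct
Tef start 2: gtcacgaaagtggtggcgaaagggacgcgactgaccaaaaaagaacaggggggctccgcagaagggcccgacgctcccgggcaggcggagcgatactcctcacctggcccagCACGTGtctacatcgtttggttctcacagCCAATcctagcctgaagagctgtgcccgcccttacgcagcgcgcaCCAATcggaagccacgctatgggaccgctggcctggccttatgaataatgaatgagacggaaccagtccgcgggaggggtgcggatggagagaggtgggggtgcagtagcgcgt
Hlf: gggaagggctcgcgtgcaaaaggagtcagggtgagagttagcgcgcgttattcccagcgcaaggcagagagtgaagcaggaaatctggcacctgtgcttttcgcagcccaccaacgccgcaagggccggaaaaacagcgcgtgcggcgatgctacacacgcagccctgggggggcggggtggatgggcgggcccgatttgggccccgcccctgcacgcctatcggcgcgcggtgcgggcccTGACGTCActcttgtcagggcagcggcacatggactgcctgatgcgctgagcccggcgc
The E-box began 127 bases before the first RefSeq start of *Tef* and 138 bases before the second. GENCODE begins *Tef* at base 81802421, so the first of these E-boxes lies inside the GENCODE gene. In *Hlf* the cyclic AMP response element began 9 bases before the start, and this promoter held no E-box and no CCAAT box. No E-box was matched in these windows of *Dbp*, *Nfil3*, *Alas1* or *Por*.

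Searches for other motifs gave few matches. The core of the D-box itself (TTACGTAA or TTATGTAA, both strands) was in none of the 8 promoters, in 1.06% of all and in 0.798% of those of genes above the minimum. With any base at the fourth position (TTANGTAA) it was again in none, in 2.32% of all and in 1.59% of those of genes above the minimum. The letters AGGTCA, a core within sites of ROR and REV-ERB receptors, were searched without flanking bases, so a match is not a full site. This core was in the *Nfil3* promoter, 12 bases before the RefSeq start but inside the GENCODE transcript. It was in no promoter of the other members, in 16.3% of all promoters and in 13.3% of those of genes above the minimum. The E-box variant CACGTT and the TATA box (TATAAA) were in none of the 8, against 4.68% and 13.6% of all. Among promoters of genes above the minimum these shares were 5.18% and 7.77%. The GC box (GGGCGG) was in 7 of the 8, all except the second promoter of *Alas1*, compared with 60.2% of the promoters of genes above the minimum. The *Nfil3* promoter held 9 of the 20 matches, some of them overlapping, had a GC content of 81.7% and exceeded 99.4% of all promoters in GC content. All 8 promoters were above the median GC content of 52.7%, as were 76.9% of the promoters of genes above the minimum. A match describes letters in these windows and does not show a bound site, and sites elsewhere in the genes were not searched.

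**Figure D4:**
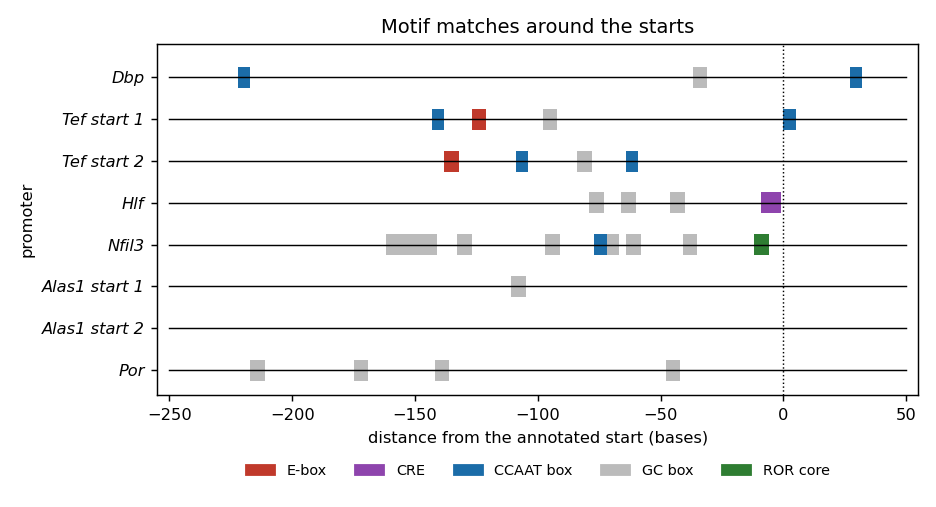
Motif matches in the 8 promoters of the 6 genes (y axis) by distance from the RefSeq start in bases (x axis, dotted line at the start), with colours for the E-box, cyclic AMP response element (CRE), CCAAT box, GC box and ROR core. E-boxes appear in the 2 *Tef* promoters alone, at 127 and 138 bases before the start, and GC boxes in 7 of the 8 promoters.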

How the data were processed

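Hepatic mRNA from 3 WT and 3 *Pai-1*+/- mice was sequenced by the authors as 75-base single-end reads, aligned to mm10 with STAR and compared with DESeq2 in a BaseSpace application; the labels also name HOMER. Versions, gene annotation and strand setting are not given in the sources used here. The signal used here is the authors' deposited DESeq2 base mean, an average of size-factor-normalized counts across the libraries. The same table holds the authors' log2 fold changes, standard errors, test statistics and p-values, which were not used. A second deposited table of counts has 6 columns headed by bare numbers that match no label, and these were not used in any step. The planned edgeR and DESeq2 fits, descriptions of lists between genotypes and fits leaving out a library were therefore not run. The protein comparison was also not run, as no protein sequences were used here.

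Levels per kilobase used the longest GENCODE M21 transcript on GRCm38, matched by symbol for 12499 of 12971 genes with a mean above 10 (96.4%). The longest transcript was taken over all models of a gene, coding or not, so it need not hold the longest coding sequence. Other lengths were reported for the 6 members only. Lengths may differ from those of the authors' annotation. Shared words were exact 75-base matches in GENCODE transcripts in either orientation. Coding windows were 60 bases without gaps. Named genes are the 6 members, genes of lists, cell type markers and genes overlapping member exons; the level of the targeted gene and of 1 listed gene is not reported here. The members, lists and motifs were chosen with earlier results of these data known, and the coding window and the E-prime, ROR, cyclic AMP, GC, CCAAT and TATA motifs were added after the files were seen. Motif, window and length functions were tested on simulated data. Software comprised Matplotlib 3.10.9 for plots, with SciPy 1.17.1, pandas 2.3.3 and NumPy 2.4.6 under Python 3.11.15 for calculations.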

Additional observations from a re-analysis of the deposited data

How the results depend on the processing

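No paired analysis was possible because the count columns carry no replicate number or sample label, and no fit between genotypes was made. The level per kilobase moved with the length used for every gene except *Nfil3*. With the median coding transcript it was 1782 for *Dbp*, 2046 for *Tef*, 721 for *Hlf*, 15664 for *Alas1* and 27996 for *Por*, and with the union of exons 746, 592, 338, 4662 and 6392 in the same order. For *Alas1* and *Por* the median coding transcript is shorter than the longest coding sequence. Ranks by reads did not change without the minimum on the mean. Per kilobase they became 1244 for *Dbp*, 1394 for *Tef*, 3080 for *Hlf*, 2663 for *Nfil3*, 200 for *Alas1* and 180 for *Por*. The counts of member promoters with an E-box, D-box core or cyclic AMP response element did not change when the 50 bases after the start were left out, nor did the D-box count with any base at the fourth position. The alternatives planned for the genotype comparison and the protein identity were not run. Means over all libraries carry no spread, so no difference between 2 genes could be set against the variation between mice.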
